A study of Homo sapiens with 22 samples.

Results

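The cells described here held messenger RNA of both DPPA3 and ALPPL2 during the reprogramming of human fibroblasts to pluripotency. They were selected on their counts: a cell of D9 or D11 was a member if it had at least 1 UMI (unique molecular identifier, 1 counted RNA molecule) of DPPA3 and at least 1 UMI of ALPPL2. Cells with at least 1000 genes detected and at most 10% of UMIs on mitochondrial genes were kept. This gave 684 co-expressing cells among 9602 kept cells of D9 and D11 and 41975 kept cells of the whole series. The members came from 4 pools of cells: 160 from D9A, 138 from D9B, 203 from D11A and 183 from D11B. They were compared with 2923 double-negative cells of the same pools, which had no UMI of either gene and at least 200 CPM of POU5F1 (CPM, UMIs scaled to a total of 1000000). The same limit on POU5F1 was set for 1537 DPPA3-only cells and 378 ALPPL2-only cells, but not for the members.

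The starting cells were BJ, an established human fibroblast line, grown on microfluidic chips. Once a day they received synthetic RNA for POU5F1, SOX2, KLF4, MYC, LIN28 and NANOG. The 8 transfections were given on the days before D9, so D9 was sampled just after the last transfection and D11 later, and all cells of both days had received them. The medium, supplemented Pluriton before, was StemMACS iPSBrew XF from D9 on. Between D9 and D11, time, the end of transfection and the medium therefore cannot be told apart. Each day had 2 pools, each made from 4 chips, and aliquots of a pool were frozen, thawed and run as 10x Genomics 3' libraries. The series holds 22 libraries from 8 days, and 7 of them are from D9 and D11. The single line and the 2 pools per day limit what the spread between samples covers.

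DPPA3 is a maternal factor linked to the control of DNA methylation, and it is a marker of primordial germ cells and of naive pluripotent cells. ALPPL2 is a germ-cell type alkaline phosphatase of the cell surface, used as a marker of naive human pluripotent stem cells. Naive cells resemble the epiblast before implantation, and primed cells, the usual state of human induced pluripotent stem cells, resemble the epiblast after it.

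DPPA3 lies on chromosome 12 at 7711433-7717559 (GRCh38, plus strand) and ALPPL2, named ALPG by RefSeq, on chromosome 2 at 232406844-232410714 (plus strand). The promoters of both genes are shown because they define the members, and those of KHDC3L and DPPA5 because these neighbours led the genes that were higher in the members. Each run covers 250 bases before and 50 bases after the RefSeq start (GRCh38.p14), 5′ to 3′ on the gene's strand: chr12:7711183-7711482 (+) for DPPA3, chr2:232406594-232406893 (+) for ALPPL2, chr6:73362408-73362707 (+) for KHDC3L and chr6:73354227-73354526 (-) for DPPA5. Capitals mark matches, on either strand, to the AP-2 motif GCCNNNGGC or the KLF motif CCNCACCC.
DPPA3: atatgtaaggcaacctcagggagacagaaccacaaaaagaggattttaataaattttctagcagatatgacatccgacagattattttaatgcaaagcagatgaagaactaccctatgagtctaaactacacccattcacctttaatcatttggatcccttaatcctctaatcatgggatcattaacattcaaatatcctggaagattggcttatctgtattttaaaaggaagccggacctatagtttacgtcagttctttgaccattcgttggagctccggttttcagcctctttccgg
ALPPL2: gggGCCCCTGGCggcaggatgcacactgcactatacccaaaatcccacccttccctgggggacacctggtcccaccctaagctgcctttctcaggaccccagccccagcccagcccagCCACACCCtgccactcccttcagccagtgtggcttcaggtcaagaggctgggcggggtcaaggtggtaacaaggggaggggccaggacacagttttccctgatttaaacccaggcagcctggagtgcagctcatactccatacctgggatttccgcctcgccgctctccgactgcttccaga
KHDC3L: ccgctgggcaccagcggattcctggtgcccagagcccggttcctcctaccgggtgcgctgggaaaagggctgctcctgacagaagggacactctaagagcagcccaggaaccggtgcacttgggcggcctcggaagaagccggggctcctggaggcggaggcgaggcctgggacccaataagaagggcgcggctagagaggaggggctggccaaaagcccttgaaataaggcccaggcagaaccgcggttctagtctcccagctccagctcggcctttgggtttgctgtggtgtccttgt
DPPA5: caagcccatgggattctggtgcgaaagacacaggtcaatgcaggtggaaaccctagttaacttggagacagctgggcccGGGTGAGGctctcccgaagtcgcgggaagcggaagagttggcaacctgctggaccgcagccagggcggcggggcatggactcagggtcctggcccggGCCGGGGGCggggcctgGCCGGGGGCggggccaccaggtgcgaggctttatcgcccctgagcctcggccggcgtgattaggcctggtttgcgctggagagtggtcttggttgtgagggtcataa

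The ALPPL2 window held 1 AP-2 and 1 KLF match, the DPPA5 window held 2 AP-2 matches and 1 KLF match, and the DPPA3 and KHDC3L windows held 0 of either. Of 35116 promoter windows of this length, 23.2% held the AP-2 motif and 18.3% the KLF motif. The octamer ATGCAAAT, present in 1.77% of the windows, and the TATA motif TATAAA, present in 11.53%, were searched for in the same way and matched in 0 of the 4 windows. The matches are a description of letters and not of binding.

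**Figure D1:**
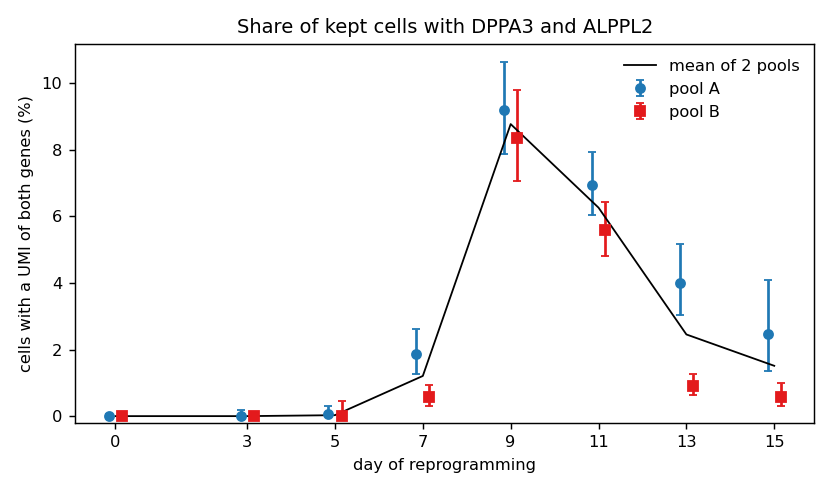
Share of kept cells with at least 1 UMI of DPPA3 and of ALPPL2 (y axis, percent) by day of reprogramming (x axis), with 1 point per pool, exact 95% binomial intervals and a line through the mean of 2 pools. The share stood highest on D9, at 9.18% and 8.35%, and at 0 in both pools of D0.

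Cells with both transcripts were found mainly from D7 on. Their share of kept cells was 0 in both pools of D0 (0 of 10776 cells, which allows a share of up to 0.0278%) and of D3 (0 of 6660 cells, which allows up to 0.045%). It was 1 cell of 2582 on D5 and 1.21% ± 0.91 (SD, n = 2 pools) on D7. It reached 8.77% ± 0.591 on D9 and was 6.26% ± 0.965 on D11, 2.45% ± 2.18 on D13 and 1.51% ± 1.33 on D15. The D9 pools lay at 9.18% (exact 95% binomial interval 7.87 to 10.6) and 8.35% (7.06 to 9.79), the D11 pools at 6.94% (6.05 to 7.92) and 5.58% (4.82 to 6.42), so the pools of these days did not overlap. With 2 pools against 2 the smallest p that an exact two-sided permutation test allows is 0.333, and no test was run. These intervals cover counting error only. The single libraries of D9 and D11 did overlap. Library D11B1 stood at 9.44% (6.31 to 13.4) of 286 kept cells, at a median depth of 73768.5 UMIs. D11B2, an aliquot of the same pool, stood at 5.21% (4.44 to 6.06), at a median depth of 43556 UMIs. The D9 libraries D9A1, D9A2, D9B1 and D9B2 stood at 11.2%, 9.01%, 7.76% and 9.03%.

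The share depended on depth. After thinning every cell to 20000 UMIs it was 2.15% on D9 and 1.39% on D11. After thinning to 5000 UMIs it was 0.145% and 0.194%, in the opposite order. Median depth was 62151, 49735, 38827.5 and 32477 UMIs on D9, D11, D13 and D15, so it fell with the share. D13A and D15A had shares of 3.99% and 2.45% at 54703 and 57141 UMIs. D13B and D15B had 0.909% and 0.569% at 35610 and 29973 UMIs. D13A and D15A were deeper than D11B, at 44743.5 UMIs, but had lower shares than its 5.58%. The part of depth in the fall after D11 was not tested, as no thinned share is given for D13 or D15. In D0 fibroblasts, which should lack both genes, 2 of 10776 cells had a UMI of DPPA3 (0.0186%) and 1 had a UMI of ALPPL2 (0.00928%), at a median of 25822 UMIs per cell. Among 4080 kept non-member cells of D9 and D11 with under 200 CPM of POU5F1, 225 (5.51%) had exactly 1 UMI of DPPA3. Exactly 1 UMI of ALPPL2 was seen in 119 (2.92%), and the median depth was 44690 UMIs. The highest counts in these cells were 5 UMIs of DPPA3 and 7 of ALPPL2, and cells with more than 1 UMI are not in these shares. Among all kept cells, 1 UMI or more of DPPA3 was seen in 20.03% of D9 and 29.0% of D11 cells. For ALPPL2 this was 18.3% of D9 and 9.59% of D11 cells. These measures are unlike, and the rule took cells with both genes out of the first. The members' median depth was 76749 UMIs.

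The shares of cells with each gene and with both are given as a description, since these UMIs are the ones that chose the members. Among cells with 200 CPM or more of POU5F1, thinned to 20000 UMIs, both were seen in 4.64% of cells of D9A, where the product of the 2 shares was 3.39%. In D9B these values were 4.92% and 2.30%, in D11A 1.60% and 0.809%, and in D11B 2.88% and 1.46%.

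Most members carried few molecules of the genes that chose them, and these values are given as a description with no test. The median member had 2 UMIs of DPPA3 and 1 UMI of ALPPL2. Just inside the limit, 165 members (24.1%) had exactly 1 UMI of both, while 201 (29.4%) had 2 or more of both. Just outside it, 844 DPPA3-only cells had 1 UMI of DPPA3, and 283 ALPPL2-only cells had 1 UMI of ALPPL2. In the members' sums DPPA3 stood at 30.0, 30.9, 56.3 and 72.1 CPM in D9A, D9B, D11A and D11B, and ALPPL2 at 25.004, 26.5, 30.2 and 26.4 CPM. DPPA3 was thus higher in both D11 pools than in both D9 pools. For ALPPL2, 1 cell gave 39.9% of the UMIs of D11A, and without it D11A stood at 18.3 CPM, below both D9 pools.

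**Figure D2:**
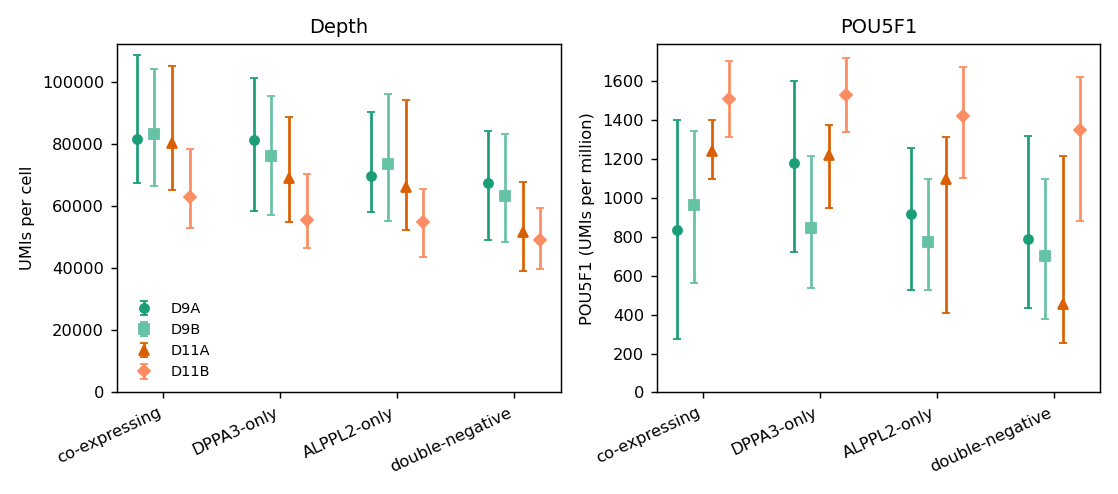
UMIs per cell (left, y axis) and POU5F1 in CPM (right, y axis) for the 4 classes of cells (x axis), as the median (point) and quartiles (bars) in each pool. The co-expressing cells were deeper than the double-negative cells in all 4 pools, and in D11A the double-negative cells had far less POU5F1.

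Members were deeper than double-negative cells and had a higher median of POU5F1. Their median depth was 81732, 83240, 80528 and 63147 UMIs in D9A, D9B, D11A and D11B, against 67547, 63395, 51680 and 49257 in double-negative cells. Over 2 times the median depth of their own library had 85 members (12.4%) and 75 double-negative cells (2.57%). Scrublet, a doublet caller, placed 2.78% of members and 2.63% of double-negative cells among the highest doublet scores, with 5.42% against 1.67% in the D11A library and, the other way round, 1.28% against 4.10% in the larger D11B library. In the other 5 libraries 0 to 2.90% of members and 0 to 3.51% of double-negative cells were among them. Of kept cells, 51 barcodes were shared between libraries, 1 of them between members. Median POU5F1 was 834, 963, 1242 and 1505 CPM in members and 790, 700, 455 and 1346 CPM in double-negative cells, so the gap was widest in D11A. In the sums POU5F1 stood at 827, 1002, 1218 and 1493 CPM against 940, 801, 808 and 1259.7 CPM, lower in members of D9A only. On D9, 32 members of D9A and 12 of D9B had under 200 CPM of POU5F1, and 3 members did so in D11A and 0 in D11B. Depth and POU5F1 therefore moved with the comparison of members and double-negative cells, and for the gene lists below the counts called with double-negative cells matched on depth or on POU5F1 are given too. Of the 82 genes named by rule in this comparison, 26 lost the call with matching on POU5F1. Over all 13501 genes, 866 were called higher and 1048 lower with matching on depth, and 511 higher and 505 lower with matching on POU5F1. Depth matching was also run against DPPA3-only cells, and no matching was run for the other comparisons.

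The first comparison asked how co-expressing cells differed from double-negative cells. The limit on POU5F1 held for the double-negative cells, and 47 members were under it. UMIs were added up per pool and class, and edgeR's quasi-likelihood test with the pool as a block was run on these 16 sums over 13501 genes, without DPPA3, ALPPL2 and POU5F1. The call needed a Benjamini-Hochberg adjusted p under 0.01 together with a change of over 0.25 on the log2 scale. KHDC3L, DPPA5, NLRP2 and CSH1 had the largest rises among genes at 20 CPM or more, and FZD2, CYP26A1, CST1 and SFRP1 the largest falls. Called were 2788 genes, 20.7% of those tested: 1283 were higher in co-expressing cells (9.5%) and 1505 lower (11.1%). Against depth-matched double-negative cells, 866 were higher and 1048 lower, and against double-negative cells matched on POU5F1, 511 were higher and 505 lower. With only the members at 200 CPM or more of POU5F1, 1475 were higher and 1757 lower. Without D11A 1603 genes were called and without D11B 1855.

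**Figure D3:**
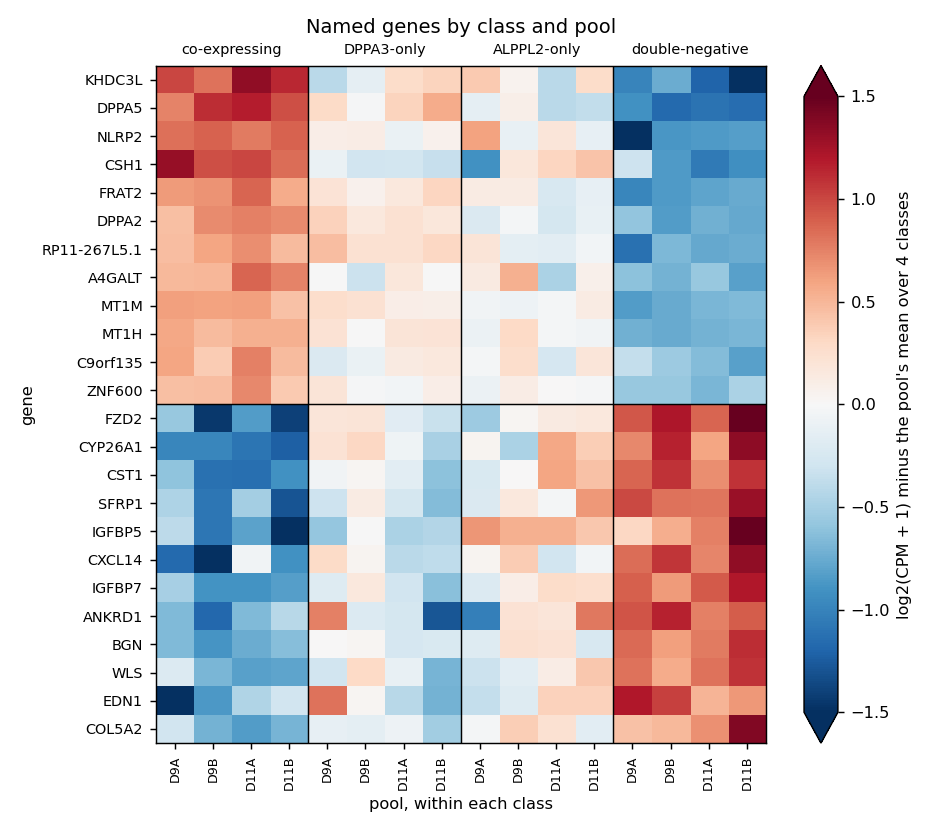
The 12 largest rises and 12 largest falls between co-expressing and double-negative cells (rows) in the 16 sums (columns, 4 pools in each of 4 classes), coloured by log2(CPM + 1) minus the mean of the same pool over its 4 classes. DPPA3-only levels lay between those of co-expressing and double-negative cells in every pool for 11 of the 12 rises and 7 of the 12 falls, and ALPPL2-only levels for 10 and 8 of 12. The genes were picked for the gap between co-expressing and double-negative cells, which favours levels in between, and no share over all genes was computed.

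The largest rises among genes at 20 CPM or more in every pool of members are given first. KHDC3L, a component of the maternal complex under the oocyte membrane, stood at 41.0, 38.7, 82.9 and 111 CPM in members of D9A, D9B, D11A and D11B and at 9.56, 12.5, 13.5 and 14.3 CPM in double-negative cells. The groups did not overlap, and the log2 fold change was 2.44 (SE 0.22, edgeR adjusted p = 1.6e-06). In D9A 1 cell held 38.4% of the members' KHDC3L UMIs, and without it D9A stood at 25.4 CPM. In D9B 1 cell held 25.3%, and without it D9B stood at 29.1 CPM. DPPA5, a KH-domain protein of pluripotent cells, stood at 81.6, 97.3, 205 and 270 CPM against 25.3, 19.3, 41.0 and 61.8 CPM (log2 fold change 2.19, SE 0.13, adjusted p = 3.1e-08), again without overlap. KHDC3L and DPPA5 lie 8.4 kb apart on chromosome 6, on opposite strands. NLRP2, whose protein acts in oocytes and early embryos, stood at 21.6, 26.5, 22.5 and 39.1 CPM against 3.44, 7.17, 6.60 and 11.2 CPM (log2 fold change 1.98, SE 0.15, adjusted p = 2.6e-07). All 3 remained called with matching on depth and with matching on POU5F1.

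CSH1, the placental lactogen, had a UMI in 46.9% and 57.2% of the members of D9A and D9B and 99.5% and 69.9% of those of D11A and D11B, against 29.8%, 45.9%, 89.4% and 43.3% of double-negative cells. In D11A nearly every cell of each class thus had a UMI, and the part of free RNA in this was not tested. Its sums were 204, 141, 452 and 529 CPM in members and 65.7, 39.4, 108 and 156 CPM in double-negative cells (log2 fold change 1.89, SE 0.21, adjusted p = 1.1e-05). The D9B members lay below the D11B double-negative cells, so the groups overlapped across days but not within a day. A single cell gave 40.6% of the CSH1 UMIs of D9A members, which stood at 123 CPM without it, and another 28.3% of those of D9B. Of the 98-base words in the last 500 bases of its transcripts, 39.6% occur in CSH2 or CSHL1 too, so reads of these copies may be split.

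The other rises spanned signalling, chromatin and metal binding. FRAT2, a GSK3-binding protein of the WNT pathway, rose by 1.62 on the log2 scale, DPPA2, a chromatin factor of early embryos, by 1.503, the long noncoding RNA RP11-267L5.1 by 1.45, and A4GALT, which makes the globo-series glycolipid Gb3, by 1.43. MT1M and MT1H, metallothioneins, rose by 1.39 and 1.31, C9orf135 by 1.25 and the zinc-finger gene ZNF600 by 1.22. Members and double-negative cells did not overlap over the 4 pools for 8 of the 12 largest rises and 7 of the 12 largest falls, which were picked for their folds. Over all 13501 genes tested 8.35% did not overlap, 2.72% with members higher and 5.64% with members lower.

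The largest falls were of genes with varied roles. FZD2, a WNT receptor, stood at 7.35, 3.48, 7.92 and 1.68 CPM in members against 22.6, 27.4, 28.2 and 20.1 CPM in double-negative cells (log2 fold change -2.26, SE 0.24, adjusted p = 6.2e-06). CYP26A1, which breaks down retinoic acid, stood at 12.7, 14.4, 32.3 and 36.6 CPM against 43.9, 66.6, 106 and 222 CPM (log2 fold change -2.06, SE 0.22, adjusted p = 6.2e-06). Members of every pool were lower than every pool of double-negative cells for both genes. SFRP1, a secreted WNT antagonist, had a log2 fold change of -1.72 and WLS, which carries WNT ligands to the surface, of -1.495. The protease inhibitor CST1 had -1.88, the chemokine CXCL14 -1.67, the vasoconstrictor peptide EDN1 -1.48 and ANKRD1, a nuclear ankyrin-repeat protein, -1.62. The matrix and secreted genes IGFBP5, IGFBP7, BGN and COL5A2 had -1.67, -1.64, -1.55 and -1.43. With matching on POU5F1 the calls of IGFBP5, CXCL14, ANKRD1 and WLS were lost, at -0.77, -0.94, -0.79 and -0.89.

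**Figure D4:**
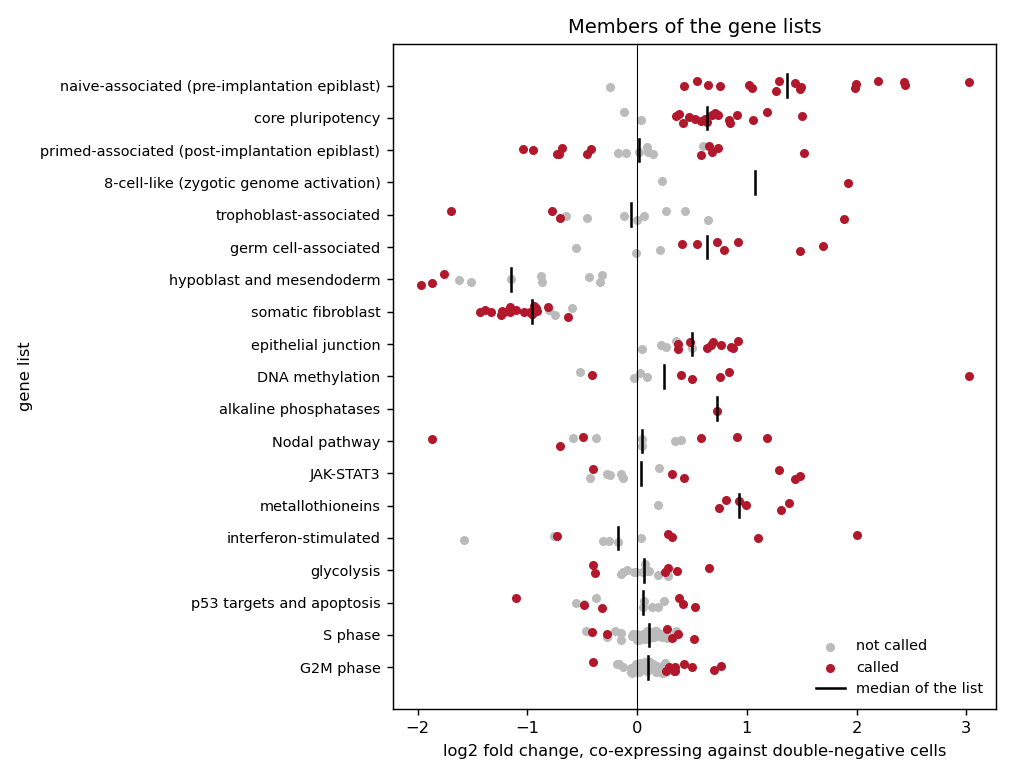
Log2 fold change between co-expressing and double-negative cells (x axis) for each tested member of 19 gene lists (y axis), in red where called and grey where not, with a black bar at the list's median. Of the 18 tested naive-associated genes 17 were called higher, and of the 25 somatic fibroblast genes 21 were called lower.

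Naive-associated genes were higher in members nearly throughout. Of 22 listed genes other than DPPA3 and ALPPL2, 18 were tested, 17 rose and 0 fell, with a median log2 fold change of 1.36 against 0.00 over all genes tested, of which 9.5% were called higher and 11.1% lower. DNMT3L, the inactive cofactor of the de novo DNA methyltransferases, stood at 5.25, 5.59, 7.64 and 12.4 CPM in members and 0.344, 1.08, 1.03 and 1.33 CPM in double-negative cells (log2 fold change 3.02, SE 0.23, adjusted p = 4.2e-07). It is a low gene, and 51.5% of its end words occur in another annotated gene. NLRP7, next to NLRP2 on chromosome 19, stood at 14.5, 19.3, 19.3 and 42.1 CPM against 2.23, 2.54, 5.36 and 7.28 CPM (log2 fold change 2.43, SE 0.18, adjusted p = 2.5e-07). The list's other two leading genes, KHDC3L and DPPA5, are given above. The listed member that was not called was LIFR, the receptor of leukaemia inhibitory factor, at a log2 fold change of -0.25. Matched on depth 16 were called higher, where 866 of all 13501 genes were, and matched on POU5F1 13, where 511 were.

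KLF17, a factor of the human pre-implantation epiblast, had 11 UMIs in all members and 0 in double-negative cells, and was too low to be tested. Of the 11 UMIs 10 were in D11A, and 1 cell there held 9. SUSD2, a surface protein used to sort naive cells, stood at 32.5, 34.4, 9.31 and 13.3 CPM against 30.7, 20.8, 5.63 and 6.84 CPM (log2 fold change 0.64, SE 0.17, adjusted p = 0.0065), and its call was lost with either matching. TFAP2C, an AP-2 factor of naive and germ cells, rose by 0.55 (adjusted p = 6.4e-05). ARGFX, a homeobox gene of early embryos, rose by 2.00, with 34.5 and 19.8 CPM in the D9 members and 0.112 and 0 CPM in those of D11. Its D9A and D9B sums were 493 and 245 UMIs in members and 124 and 154 in double-negative cells. In D11A and D11B they were 2 and 0 against 1 and 2, so the rise rests on D9.

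General pluripotency genes were also higher, by smaller folds. Of 19 tested core pluripotency genes 17 rose and 0 fell (median log2 fold change 0.63), where 9.5% of all genes were called higher. DPPA2, GDF3, UTF1 and FOXD3 led them, at 1.503, 1.19, 1.06 and 0.91. NANOG, which was also transfected, stood at 131, 126, 75.8 and 109 CPM in members and 99.6, 89.1, 36.9 and 73.0 CPM in double-negative cells (log2 fold change 0.69, SE 0.09, adjusted p = 3.7e-05). SOX2 and LIN28A, both transfected, were not called, at 0.04 and -0.12. Whether counts of the transfected genes came from transfected or own RNA cannot be told apart here. With matching on depth 17 of the 19 were called higher, and with matching on POU5F1 11, where 511 of all 13501 genes were.

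Primed-associated genes moved in both directions. Of 19 tested, 5 rose and 7 fell, with a median of 0.02, beside 9.5% of all genes called higher and 11.1% lower. With matching 5 were called higher and 5 lower (depth), or 4 and 5 (POU5F1). Among them, the ETS factor ETV4 had a log2 fold change of 0.74, while DUSP6, a phosphatase of the ERK pathway, had -1.04 and CYTL1 -0.95. Their summed level was 1732 to 2141 CPM in members and 1549 to 2023 CPM in double-negative cells over the 4 pools.

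**Figure D5:**
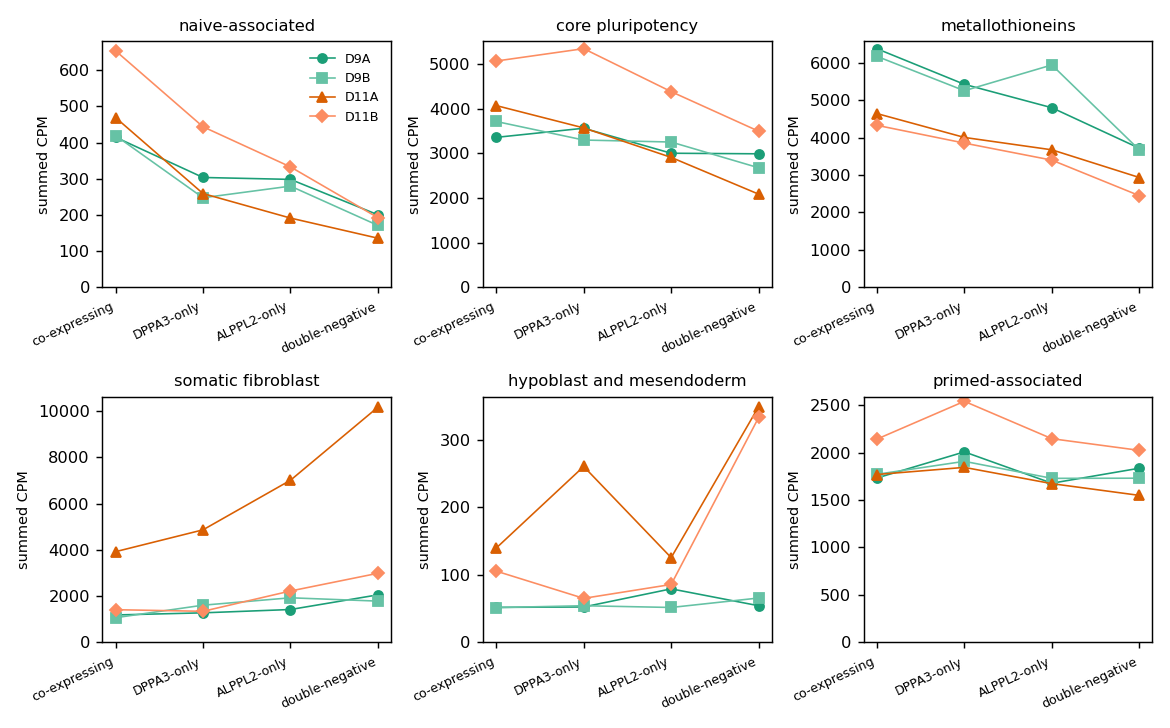
Summed level of 6 gene lists (y axis, CPM from 0) in the 4 classes of cells (x axis), with a line per pool. Naive-associated genes were highest in co-expressing cells in every pool, at 415 to 654 CPM, and somatic fibroblast genes were highest in double-negative cells in D9A, D11A and D11B.

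Most fibroblast genes were lower in members. Of 25 tested fibroblast genes 21 fell and 0 rose (median -0.96), where 11.1% of all genes were called lower, led by COL5A2 at -1.43, the factor PRRX1 at -1.38 and the proteoglycans LUM at -1.33 and DCN at -1.24. Their summed level in members was 1188, 1068, 3925 and 1416 CPM in D9A, D9B, D11A and D11B, against 2059, 1786, 10177 and 2991 CPM in double-negative cells, so D11A stood apart in both classes. When double-negative cells were matched on depth, 19 of the 25 were called lower. With matching on POU5F1, 4 of the 25 fell and the median was -0.28. Of 11 tested hypoblast and mesendoderm genes 3 fell and 0 rose: EOMES, a T-box factor, at -1.97, CER1, a secreted Nodal antagonist, at -1.87 and the homeobox gene LHX1 at -1.76. With matching on depth 2 of the 11 were called lower, and with matching on POU5F1 0 were called. Within D11A, 1 cell gave 61.1% of the members' CER1 UMIs, and within D11B 1 cell gave 78.8%.

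Lists of other lineages gave mixed results. Of 12 tested trophoblast-associated genes 1 rose, CSH1, and 3 fell: the AP-2 factor TFAP2A at -1.69, the growth factor PGF at -0.78 and the keratin KRT19 at -0.71. Over all genes 9.5% were called higher and 11.1% lower. Matched on depth the trophoblast counts were 1 and 3, and matched on POU5F1 they were 1 and 1. Of 10 tested germ cell-associated genes 7 rose and 0 fell, led by DND1, an RNA-binding protein, at 1.69, the transfected factor KLF4 at 1.48, PDPN, a surface protein, at 0.92 and SOX15 at 0.79, against the same 9.5% called higher. Matched on depth 7 of the 10 were called higher, and on POU5F1 5. DND1 stood at 11.8, 12.96, 24.6 and 22.5 CPM in members and 3.38, 4.42, 8.39 and 6.99 CPM in double-negative cells. PRDM1, NANOS3 and KIT of this list were not called, at -0.56, -0.01 and 0.21. SOX17, DDX4, DAZL, CD38 and SYCP3 were too low to be tested. Of the genes that rose, KLF4 and TFAP2C are on the naive list too, and ALPL is on the list of alkaline phosphatases.

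Of the other alkaline phosphatases 1 was tested. ALPL, the tissue-nonspecific form, stood at 42.2, 40.6, 37.2 and 53.9 CPM in members and 32.1, 26.5, 20.8 and 30.9 CPM in double-negative cells (log2 fold change 0.73, SE 0.10, adjusted p = 5.4e-05). It was also called with matching, at 0.62 (depth) and 0.52 (POU5F1). ALPP, the placental form, 24 kb from ALPPL2, had 56 UMIs in members and 15 in double-negative cells, below the limit for a test. ALPI, the intestinal form, had 0 UMIs in all 4 classes. Of the 98-base words at the ALPPL2 end, 0 occur in other genes' transcripts, and 24.3% of those of DPPA3 occur in 1 other annotated gene.

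The remaining lists were led by a few genes each, and their counts stand against 9.5% of all genes called higher and 11.1% lower. Of 15 tested epithelial junction genes 10 rose and 0 fell (median 0.50), led by CRB3, CLDN7, TJP3 and CLDN3 at 0.92, 0.87, 0.85 and 0.76, and 8 (depth) or 5 (POU5F1) were called higher with matching. Of 7 metallothioneins 6 rose, led by MT1M, MT1H, MT1G and MT1F, and their summed level was 4334 to 6384 CPM in members against 2451 to 3720 CPM in double-negative cells. Matching on depth gave 6 called higher and matching on POU5F1 gave 7. Of 10 tested DNA methylation genes 5 rose, led by DNMT3L, the methyltransferase DNMT3B at 0.84, ZFP57, which guards imprints, at 0.75 and the demethylase TET1 at 0.50, and 1 fell, UHRF1, which recruits DNMT1, at -0.41. In either matching 5 of them were called higher and 0 lower. DNMT3L and ZFP57 are on the naive list too, and DNMT3B is on the core pluripotency list. In the Nodal pathway 3 of 12 rose, led by the ligand GDF3 at 1.19 and the cofactor FOXH1 at 0.91, and 3 fell, led by the antagonists CER1 and LEFTY2 (-0.71), while either matching gave 3 higher and 2 lower. GDF3 and the remaining rise, TDGF1 at 0.58, are on the core pluripotency list too, and CER1 is on the mesendoderm list. In the JAK-STAT3 list 5 of 12 rose, led by KLF4, the receptor IL6R at 1.44, TFCP2L1 at 1.29 and KLF5 at 0.42, and 1 fell. All of these named genes are on the naive list too. IL6R and TFCP2L1 are low genes, at no more than 4.41 and 2.84 CPM in any sum. The remaining rise was STAT3 at 0.32, and the fall was JAK1 at -0.40. With matching 5 were called higher and 1 lower (depth), or 4 and 0 (POU5F1).

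Of 11 tested interferon-stimulated genes 4 rose and 1 fell, where 20.7% of all genes were called in either direction. The counts were 4 and 1 with matching on depth and 3 and 1 with matching on POU5F1. MX1, a GTPase against viruses, had a log2 fold change of 2.00, the membrane proteins IFITM1 and IFITM3 1.10 and 0.31, and IFI6 -0.73. Of 14 p53 targets 3 rose and 3 fell, led by the death receptor FAS at -1.11, PMAIP1 at 0.53, TP53I3 at -0.48 and BBC3 at 0.42. Matched on depth 2 were called higher and 2 lower, and on POU5F1 1 and 1. Of 19 glycolysis genes 4 rose and 2 fell, led by ENO2 at 0.65, SLC2A3 at -0.40, PFKM at -0.38 and HK1 at 0.37. For this list the matched counts were 2 and 1 (depth) and 1 and 1 (POU5F1). Of 41 S phase genes 4 rose and 2 fell, led by HELLS at 0.52, UHRF1, MCM5 at 0.37 and RRM2 at 0.32, with 4 and 0 (depth) or 1 and 1 (POU5F1) after matching. Of 52 G2M genes 9 rose and 1 fell, led by CENPA at 0.77, PSRC1 at 0.70, ECT2 at 0.50 and UBE2C at 0.42, with 3 and 3 (depth) or 7 and 1 (POU5F1) after matching. The shares called in the 2 cell cycle lists were below the 20.7% called over all genes.

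DPPA3 has pluripotency genes for neighbours. Within 250 kb, GDF3, 15.7 kb away, stood at 192, 199, 243 and 208 CPM in members and 102, 84.8, 97.7 and 100 CPM in double-negative cells (log2 fold change 1.19, SE 0.09, adjusted p = 2.1e-07), without overlap. Its log2 fold change was 1.11 with matching on depth and 0.93 with matching on POU5F1, both called. NANOG, 70.2 kb away, is given above. SLC2A3 fell by 0.40 and CD163L1, a low gene, fell by 1.07 on the log2 scale, and SLC2A14 was not called (-0.01). Near ALPPL2, DIS3L2, ECEL1, TIGD1, EIF4E2 and EFHD1 were tested and none of the 5 was called in this comparison, with log2 fold changes from -0.15 to 0.17.

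Levels of the naive list differed with the number of molecules that chose the members. In the 165 members with 1 UMI of both genes naive-associated genes summed to 242, 224, 234 and 466 CPM in D9A, D9B, D11A and D11B, and in the 201 with 2 or more of both to 594, 594, 713 and 854 CPM, higher in each pool. In cells just outside the rule, with 1 UMI of 1 gene, they summed to 236, 188, 186 and 324 CPM (DPPA3-only) and to 275, 267, 179 and 328 CPM (ALPPL2-only). ALPPL2-only cells with 1 UMI thus stood above members with 1 UMI of both in the 2 D9 pools and below them in the 2 D11 pools. In the 47 members with under 200 CPM of POU5F1 the sum over all pools was 216 CPM. Between members with 1 UMI of both and those with 2 or more of both, fibroblast genes went from 1215 to 1188 CPM in D9A, 1602 to 834 in D9B, 4906 to 3389 in D11A and 1653 to 1248 in D11B. Hypoblast and mesendoderm genes went from 64.8 to 49.8 and from 43.5 to 64.6 CPM in D9A and D9B, and from 283 to 84.0 and from 246 to 59.0 CPM in D11A and D11B, so they were higher with 2 or more UMIs in D9B only. Primed-associated genes stood at 1672 to 2110 CPM over the pools with 1 UMI and at 1626 to 1993 CPM with 2 or more. These are descriptions, since the same cells' counts define the groups.

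The second comparison set members against cells with 1 of the genes only. Against DPPA3-only cells, 20 genes were called, 0.148% of those tested, 16 of them higher in members and 4 lower. CSH1 stood at 204, 141, 452 and 529 CPM in members and 76.3, 58.7, 185 and 232 CPM in DPPA3-only cells (log2 fold change 1.33, SE 0.21, edgeR adjusted p = 0.0089). HUS1, a DNA damage checkpoint gene, PQLC3, the interferon-induced ligase gene HERC5 and FRAT2 were higher by 0.68, 0.68, 0.55 and 0.54 on the log2 scale. ID2, an inhibitor of helix-loop-helix factors, stood at 14.8, 19.0, 19.1 and 23.7 CPM against 27.7, 36.5, 31.6 and 27.5 CPM (log2 fold change -0.64, SE 0.10, adjusted p = 0.0094). The cyclin gene CCND1 had -0.44. DNMT3L and NLRP7 of the naive list were higher by 1.84 and 1.32, while KHDC3L and DPPA5 were not called (1.04 and 0.73, adjusted p = 0.024 and 0.013). Against depth-matched DPPA3-only cells 10 genes were called, PQLC3, HERC5 and CCND1 among them, and CSH1, HUS1, FRAT2 and ID2 were not (1.25, 0.72, 0.525 and -0.615, edgeR adjusted p = 0.023, 0.016, 0.017 and 0.018). The count was 0 to 7 with 1 pool left out, at 6 without D9A, 1 without D9B, 7 without D11A and 0 without D11B, where 1466 genes had an unadjusted p below 0.05.

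Against ALPPL2-only cells, 101 genes were called, 0.748% of those tested, 59 of them higher in members and 42 lower. DPPA5 was higher by 1.27 (SE 0.13, edgeR adjusted p = 0.00016), DPPA2 by 0.89, FRAT2 by 0.74, DSEL, an enzyme of dermatan sulphate, by 0.71 and GDF3 by 0.66. CYP26A1 had a log2 fold change of -1.30, CST1 of -1.14, PLAU, the urokinase gene, of -1.05, NEXN, an actin-binding protein, of -0.86 and IGFBP7 of -0.85. DNMT3L, NLRP7 and ARGFX of the naive list were higher by 2.03, 1.35 and 1.08, and 6 of the 18 tested naive genes were called. Of 25 fibroblast genes 1 was called, COL1A2, at -0.62. With 1 pool left out the count was 17 to 42: 42 without D9A, 34 without D9B, 17 without D11A and 34 without D11B. Whether the differences from DPPA3-only and from ALPPL2-only cells differ was not tested.

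The third comparison was between days. Members of D11 differed from members of D9 in 133 genes, 0.985% of those tested, 77 higher and 56 lower on D11, in a fit of the 4 member sums. The count depended on single pools: it was 5 without D9A, 70 without D9B, 1367 without D11A and 2339 without D11B, where the lone pool of a day is assumed to vary like the other day. CER1 stood at 0.14 and 0.486 CPM in D9A and D9B, from 2 and 6 UMIs, and at 52.6 and 38.2 CPM in D11A and D11B (edgeR adjusted p = 0.0012). Single cells held 61.1% and 78.8% of the CER1 UMIs of the D11 pools, which stood at 20.5 and 8.16 CPM without them. The motor gene KIF1A rose by 4.14 on the log2 scale, the natriuretic peptide NPPB by 3.06, the Notch target HES1 by 2.56 and the muscle actin ACTA1 by 2.49.

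AES, a corepressor gene, stood at 9004 and 5670 CPM in the D9 members and 346 and 297 CPM in the D11 members (log2 fold change -4.53, SE 0.24, adjusted p = 0.0012). AES was not called between members and double-negative cells (-0.11, adjusted p = 0.54), with 13070 and 4930 CPM in D9 double-negative cells. HLA-DQB1, a class II antigen gene, had a log2 fold change of -4.42, TNFSF9, a ligand of T cells, of -3.51, HOXB-AS1 of -3.32 and the potassium channel KCNK1 of -2.62. On the naive list 1 gene rose, DPPA5 (1.38), and 2 fell: SUSD2 (-1.60) and ARGFX, which had 738 UMIs on D9 and 2 on D11. On the core, primed and mesendoderm lists SOX2, TERF1, T, PTPRZ1 and CER1 were higher and ETV4 was lower on D11.

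The difference between members and double-negative cells changed between D9 and D11 for 21 genes, 0.156% of those tested, 13 of them with a larger value on D11 and 8 with a smaller one. SOCS1, a brake on cytokine signalling, stood at 119, 94.1, 143 and 172 CPM in members of D9A, D9B, D11A and D11B and at 230, 218, 117 and 186 CPM in double-negative cells, so it was lower in members of both D9 pools, higher in D11A and lower in D11B (difference of the log2 fold changes 1.18, SE 0.15, edgeR adjusted p = 0.0048). PCAT14, a noncoding RNA, TRIML2, MYC and DCLK1 had 1.52, 1.09, 0.99 and 0.91. CDH2, the N-cadherin, stood at 34.0, 28.4, 21.97 and 12.6 CPM in members and 31.5, 34.9, 51.3 and 38.0 CPM in double-negative cells (-1.29, SE 0.18, adjusted p = 0.0059). MARCKS, SVIL, ENPP1 and CTSC had -1.15, -1.12, -0.91 and -0.66. The count over all genes was 0 without D9A, 8 without D9B, 8 without D11A and 74 without D11B, of which 0, 3, 3 and 12 were among the 21 in the same direction.

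As a description over the 16 sums, the genes most like DPPA3 in log2(CPM + 1) included BCL11A, CCK, COA7 and NOP10, with Pearson correlations of 0.90, 0.89, 0.87 and 0.86. Those most like ALPPL2 were GPX2, CYSRT1, EIF3D, PPP1R14A and NDOR1, at 0.85, 0.78, 0.77, 0.75 and 0.75. The sums of a pool share libraries, and the rule sets each gene to 0 in 8 of the 16 sums.

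One member of D11A stood apart from all others. It was chosen after its values were seen. It had 216 UMIs of ALPPL2 and 73 of DPPA3, where the highest other member had 40 and 44. Of 16 genes listed for zygotic genome activation, the burst of transcription at the 8-cell stage, it had UMIs of 11, and the other 683 members had at most 2. These included 155 UMIs of TRIM43, 42 of RFPL4B, 24 of TPRX1, 12 of MBD3L2, 10 of PRAMEF12 and 7 of LEUTX. It also had 307 UMIs of CCNA1, 264 of KHDC1L and 9 of KLF17, which were 44.6%, 86.3% and 81.8% of all UMIs of these genes in members. Its NANOG and SOX2 counts were 1 UMI each, against medians of 7 and 4 in the other members. Among all 41975 kept cells of the series it was the 1 cell with 5 or more of the 16 genes, and 4 had 3 or more. On the full list 2 of 19 genes were tested in the first comparison, of which CCNA1 rose. Its depth was 97570 UMIs, 1.74 times the median of its library, with 6.26% mitochondrial UMIs and a doublet score above 22.2% of its library's barcodes. Without it CCNA1 was still called, at a log2 fold change of 1.27 in place of 1.92, and 2783 genes were called in the first comparison.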

How the data were processed

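Single-cell RNA of reprogrammed BJ cells was measured with 10x Genomics 3' libraries. The deposited files hold raw UMI counts per gene and barcode, made by the authors with Cell Ranger 2.2 (per the labels and the submitters' processing notes) on hg38, with no normalization, before the authors' own filters on cells. Barcodes under 1000 genes or over 10% mitochondrial UMIs were left out, and aliquots of a pool were added together. Pool sums held 112553545 to 180056814 UMIs on D9 and D11. The D9 and D11 files held 10292 barcodes, of which 9602 were kept. Where the pool was a block, the p-values rest on how far the differences between classes varied from pool to pool. For members of D11 against D9, fitted without a block, the p-values rest on the spread between pools of a day. All pools came from 1 cell line.

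UMIs were summed per pool and class (16 sums). A gene entered the test if 5% or more of these cells had a UMI of it. The test was run with edgeR 4.0.16 (TMM, quasi-likelihood, pool as a block) in R 4.3.3, and DESeq2 1.42.0 was an alternative. The call limits are those of the study. Its test over single cells was not used, because cells of 1 pool are not independent. A permutation of signs over 4 pools cannot go below 0.125, so values per pool have no test. The fits were tested on simulated data. Doublets were scored with Scrublet in scanpy 1.11.5, whose highest scores were removed as an alternative. Depth matching took, per library, the double-negative cells nearest in UMIs, and POU5F1 matching those nearest in POU5F1. Gene positions came from gencode v44 by Ensembl identifier, promoters from RefSeq (GRCh38.p14). The files' gene symbols were used, and ESRG and DUXB of the lists were not found under these symbols.

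Named are the 12 largest rises and falls between members and double-negative cells (5 in other comparisons) among called genes moving 1 way in every pool, at 20 CPM or more in the higher class in every pool, without MT-, RPL and RPS genes and the 3 genes of the rule. For comparisons between days, each D11 pool had to differ from each D9 pool in 1 direction (for the change in difference, in the difference between classes), with 20 CPM or more in both pools of a day in 1 class. Added are the 4 called members of each list with the largest folds, genes within 250 kb, and NANOG, KLF17, DPPA5, SUSD2, TFAP2C, CSH1, AES and the alkaline phosphatases. A pair of genes that this rule names is not reported here. The members and the 19 lists were chosen with earlier results of these data known. Alternatives were other normalizations, no gene filter, no or another block, fewer sums, each pool left out, matched or thinned cells, stricter limits on cells and molecules, and looser call limits. Chosen after seeing these data were POU5F1 matching, the limit on POU5F1 with depth matching, depth-matched DPPA3-only cells, and the removal of 1 cell.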

Additional observations from a re-analysis of the deposited data

Results flagged for a closer look

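The difference between co-expressing and double-negative cells differed between D9 and D11, by a test of the difference itself, for 21 genes. The differences of the log2 fold changes, D11 minus D9, were 1.52 for PCAT14, 1.18 for SOCS1, 1.09 for TRIML2, 0.99 for MYC, 0.91 for DCLK1, -1.29 for CDH2, -1.15 for MARCKS, -1.12 for SVIL, -0.91 for ENPP1 and -0.66 for CTSC. Without D9A edgeR called 0 genes, where 1620 had an unadjusted p below 0.05, and DESeq2 called 111 with all pools.

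Cells with UMIs of both DPPA3 and ALPPL2 were also found on days that the comparisons do not use, where D0 had 0: 46 on D7, 92 on D13 and 26 on D15. The 1 cell on D5, 0.0387% of 2582, has an exact 95% interval of 0.000981% to 0.216%, which reaches below the 0.0278% that D0 allows, so it is not shown to lie above D0.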

How the results depend on the processing

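The members' share of kept cells moved with depth and with the limit on UMIs. On D9 and D11 it was 2.15% and 1.39% at 20000 UMIs per cell, 0.145% and 0.194% at 5000 UMIs, and 2.88% and 1.67% with 2 UMIs or more of both genes, in place of 8.77% and 6.26%. The 2788 genes called against double-negative cells became 1428 with the 8 sums of these classes alone, 1355 with cells thinned to 10000 UMIs, 1016 with matching on POU5F1 and 5146 at an adjusted p under 0.05 whatever the fold, and 1603 to 2644 with each pool left out.

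The 20 genes called against DPPA3-only cells became 119 with DESeq2, 359 with no filter on genes, 44 with 8 sums, 10 with depth-matched cells and 135 at an adjusted p under 0.05, and 0 to 7 with each pool left out. The 101 called against ALPPL2-only cells became 322 with DESeq2, 632 with no filter and 734 at an adjusted p under 0.05, and 17 to 42 with each pool left out. The 133 called between days became 648 with DESeq2, 2017 with no filter, 656 with all 16 sums and 1287 at an adjusted p under 0.05, and 5 to 2339 with each pool left out. The 21 whose difference changed between days became 111 with DESeq2, 622 with no filter and 254 at an adjusted p under 0.05, and 0 to 74 with each pool left out. The cause of these moves was not tested. Some settings also held fewer sums or cells.

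The pool is a true block for classes of cells of the same pool. Without this block edgeR called 15 genes against double-negative cells, 0 against DPPA3-only cells, 0 against ALPPL2-only cells and 0 for the change between days, where 1884, 170, 436 and 455 genes had an unadjusted p below 0.05. Between days, the pool letter as a block gave 987 called genes. The labels state no pairing of the letters across days. The difference of A and B in members correlated between D9 and D11 at 0.116 over 13504 genes, and 2 pools per day cannot decide whether they are paired.

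No gene result recomputed under these alternatives reversed its direction. Of 82 gene results called against double-negative cells, 56 kept their call with matching on POU5F1, 4 without the pool block and at least 69 under each of the other alternatives. Depth limits the rare transcripts, since a median of 2 UMIs of DPPA3 and 1 of ALPPL2 decides membership.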

Other observations

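With each cell thinned to 20000 UMIs, a median of 4, 4, 4 and 5 of the 22 naive-associated genes had a UMI in members of D9A, D9B, D11A and D11B, against 2 in double-negative cells of each pool and 1 in D0 fibroblasts. KHDC3L had a UMI in 19.4%, 21.0%, 43.3% and 50.3% of members and 5.4%, 13.1%, 16.01% and 12.8% of double-negative cells, and in 2 of 4276 and 2 of 4000 D0 fibroblasts of the D0A and D0B pools that were deep enough.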
